A study of Drosophila melanogaster with 2 samples.

Results

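The nuclear genes of the respiratory chain are the genes in the cell nucleus that encode subunits of the mitochondrial complexes I to V. They were taken here by symbol from the Ensembl BDGP6.54 annotation of Drosophila melanogaster, as the protein-coding genes whose symbols begin with ND-, SdhA to SdhD, UQCR, COX followed by a digit, or ATPsyn. The rule found 87 genes of 13968 nuclear protein-coding genes. Complex I had 40, complex II 7, complex III 9, complex IV 16 and complex V 15. Of the 87, 24 have a symbol that ends in L or in L and a digit, which marks a paralog named after a second gene, and 63 do not. The ND-MNLL gene was kept among the 63, because its last letters belong to the subunit's name. No assembly factor was taken in by the rule.

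The readout was ChIP-seq of Unc-4, a homeodomain protein that acts as a transcription factor in some neurons, in flies of the strain unc-4-GFP, which carry a transgene for Unc-4 fused to eGFP. Chromatin came from whole embryos collected at 6 to 18 h of development, and the fusion protein was recovered with anti-GFP, although the antibody label names unc-4. There was 1 group with 2 biological replicates and no second condition, so the comparisons below are between sets of genes. All tissues of the embryo were pooled, and which cells a peak came from cannot be told apart. Of the thresholded peaks on nuclear chromosomes, the pooled list held 4899, that of replicate 1 held 3457 and that of replicate 2 held 2960. Peak lists hold no read counts, so the depth is unknown. The unc-4 gene itself had 0 pooled summits inside it or up to 5 kb away.

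The respiratory chain passes electrons from NADH (complex I) and succinate (complex II) through ubiquinone, complex III and cytochrome c to oxygen at complex IV, and the proton gradient built on the way drives ATP synthesis at complex V. Most subunits are encoded in the nucleus, made in the cytosol and imported, while a few come from the mitochondrial genome. In flies, as in mammals, several subunits have duplicated genes, and many such duplicates in flies are known for expression in the testis.

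The sequences shown here lie at the starts of members of each complex whose promoters held summits, most of them strong and that of SdhD weak, followed by L paralogs of the same families that held none, so that the letters can be read beside the signals given further on. All are on the gene's own strand, 5′ to 3′, read from the RefSeq copy of dm6. Capitals mark TATCGA or its reverse complement, written TCGATA, and extend to TATCGATA where the longer word is present. The stretch of ND-B14.5A was chrX:2172426-2172525 on the plus strand and that of ND-24 chrX:17632048-17632088 on the plus strand, each ending at the base before the gene start. The stretch of SdhD was chr3R:23760601-23760700, that of COX7A chr3R:8341044-8341099 and that of ATPsynCF6 chr3R:23356065-23356164, all upstream of the start on the minus strand. For UQCR-14 the 30 bases from its start onwards are shown, chrX:16286288-16286317 on the plus strand. Among the paralogs, ND-24L was read at chr3L:17320812-17320911 and ATPsynCF6L at chr3L:5012134-5012233, both on the minus strand, and ND-B14.5AL at chr3L:22606269-22606368 on the plus strand.
ND-B14.5A: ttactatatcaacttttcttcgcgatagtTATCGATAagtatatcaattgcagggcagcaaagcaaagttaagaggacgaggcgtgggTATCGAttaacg
ND-24: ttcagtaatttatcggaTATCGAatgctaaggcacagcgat
SdhD: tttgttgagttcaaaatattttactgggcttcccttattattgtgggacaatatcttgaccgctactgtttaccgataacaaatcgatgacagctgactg
COX7A: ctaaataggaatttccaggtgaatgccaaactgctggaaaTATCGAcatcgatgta
ATPsynCF6: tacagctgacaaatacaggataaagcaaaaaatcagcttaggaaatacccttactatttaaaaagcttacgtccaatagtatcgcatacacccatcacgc
UQCR-14: agtgctcgttgaTCGATAacggggtgcgat
ND-24L: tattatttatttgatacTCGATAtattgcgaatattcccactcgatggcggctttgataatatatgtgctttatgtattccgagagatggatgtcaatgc
ND-B14.5AL: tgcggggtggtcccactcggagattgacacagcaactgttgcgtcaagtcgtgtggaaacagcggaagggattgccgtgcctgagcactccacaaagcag
ATPsynCF6L: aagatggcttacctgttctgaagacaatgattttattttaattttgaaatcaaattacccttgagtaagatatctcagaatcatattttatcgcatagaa

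A summit of the pooled list lay within 1 kb of an own annotated start in 47 of the 87 members (54.0%), against 35.9% of all nuclear coding genes. A summit is the base that the authors' peak caller placed at the top of a peak. The share was 44 of 63 (69.8%) in the genes without the suffix and 3 of 24 (12.5%) in the L paralogs, so the members fell on either side of the background. Counting summits inside the gene or up to 5 kb away, 61 of the 87 members (70.1%) had one, against 57.1% of all coding genes, with 55 of 63 (87.3%) in the genes without the suffix and 6 of 24 (25%) in the paralogs. With every summit assigned to the gene of the nearest start, and to each gene where starts tie, 32 of the 87 members owned at least 1, against 26.7% of all coding genes. All 32 were genes without the suffix, and 0 of the 24 paralogs owned one in this list.

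The median signal at the members lay close to that of all coding genes in the pooled list and above it in some other lists and windows. Signal here is the value that the authors' lists give for a peak, on a scale they do not state, and each member was given its strongest summit within 1 kb. The median over the 47 members was 177.4, against 177.0 over the 5015 coding genes with such a summit, and 24 of the 47 lay above that second median. The median was 259 in the members, against 192 in all coding genes, in the conservative list, 259 against 208 at the highest IDR score, and 259 against 164 with a 100 bp window. In replicate 1 it was 205 in the members, against 163 in all coding genes, and in replicate 2 it was 72.0, against 76.9. Values ran between 44.5 and 846 in the members and between 4.39 and 1598 in all coding genes. Of the members, 6 stood in the top 10% of coding genes with a summit (UQCR-14, ATPsynF, COX7A, COX7B, ND-ASHI and ND-B14.5A), while 6 stood in the lowest 10% (ND-ACP, ND-18, ND-B17, ATPsynO, ND-B14.7 and COX5A). Of the 47, 15 (31.9%) had more than 1 summit within 1 kb, against 29.3% of all coding genes with a summit.

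**Figure D1:**
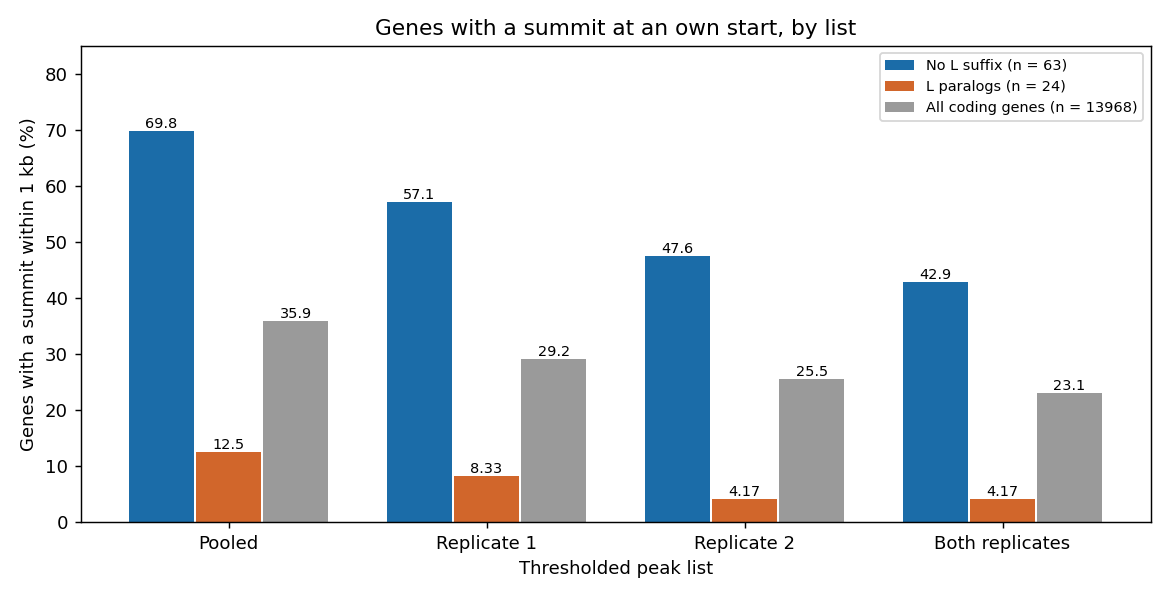
Percent of genes with a summit within 1 kb of an own start in the thresholded lists of the pooled data and of each replicate, and in both replicate lists, for the genes without the suffix, the L paralogs and all nuclear coding genes. The genes without the suffix stand above all coding genes in each (69.8% against 35.9% in the pooled list) and the L paralogs stand below all coding genes (12.5% in the pooled list).

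The order of the 3 sets of genes was the same in each list. In the thresholded list of replicate 1, 38 members had a summit within 1 kb, against 29.2% of all coding genes, of which 36 of 63 (57.1%) had no suffix and 2 of 24 (8.33%) were paralogs. In that of replicate 2 the count was 31, against 25.5% of all coding genes, with 30 of 63 (47.6%) and 1 of 24 (4.17%). Both replicates had a summit at 28 members, against 23.1% of all coding genes, with 27 of 63 (42.9%) and 1 of 24 (4.17%). The pooled ranked list holds 46847 nuclear peaks before the threshold on the irreproducible discovery rate (IDR, an estimate of the share of irreproducible peaks among those at least as strong). It put a summit near 70 members, against 66.3% of all coding genes, and the sets again stood apart, with 58 of 63 (92.1%) and 12 of 24 (50%).

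Among the 34 complex I genes without the suffix, 22 (64.7%) had a summit within 1 kb, against 35.9% of all coding genes. In both replicates 14 (41.2%) had one, against 23.1%. Of the 6 complex I paralogs, 0 had a summit within 1 kb. The 22 had a median signal of 199. Complex I has a core of subunits that carry its flavin and iron-sulphur clusters, surrounded by accessory subunits. The 7 nuclear genes of this core were picked as a set after the values were seen. Of them, 3 had a summit (ND-24, ND-23 and ND-51), as did 19 of the other 27, against 35.9% of all coding genes. This split was not tested.

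The strongest complex I summit was that of ND-ASHI, which encodes an accessory subunit, at 547 pooled, 417 in replicate 1 and 122 in replicate 2. It lay 16 bp upstream of the start and within 1 kb of 2 members of the pathway, since Fum1, encoding a fumarase of the citric acid cycle, starts on the other side of the same peak. ND-B14.5A, another accessory subunit gene, had a pooled signal of 530.3, with 372 in replicate 1 and 162 in replicate 2, at 20 bp upstream of its start, and the stretch above holds TATCGATA and, nearer to the start, TATCGA. No other coding gene starts within 1 kb of it.

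ND-24, the gene of an iron-sulphur subunit of the core, had 488 pooled, 359 in replicate 1 and 127 in replicate 2, with the summit 67 bp downstream of the start. ND-SGDH, for an accessory subunit of the membrane arm, had a pooled signal of 466, with 331 in replicate 1 and 118 in replicate 2. All 4 of these genes had a summit nearest to their own start. The lowest complex I values were those of ND-B14.7 with 53.4 and of ND-B17 with 62.0, both accessory subunit genes, and neither had a thresholded summit in a single replicate.

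The 12 complex I genes without a summit were ND-20, ND-30, ND-49, ND-75, ND-AGGG, ND-B14, ND-B16.6, ND-B17.2, ND-B18, ND-B22, ND-MLRQ and ND-PDSW. ND-75, ND-49, ND-30 and ND-20 encode the rest of the core, and the others accessory or associated subunits. ND-30, ND-B14, ND-B16.6, ND-B17.2 and ND-PDSW had a summit inside the gene or up to 5 kb away, in each case with the strongest one nearest to the start of another gene, and the other 7 had none there. ND-AGGG and ND-MLRQ lie in the proximal part of 3L and were 440201 and 460411 bp from the nearest pooled summit.

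Complex II has 4 subunits, the flavoprotein SdhA and the iron-sulphur protein SdhB, which oxidise succinate, and SdhC and SdhD, which anchor them in the membrane. The genes of both anchors had a summit and those of both catalytic subunits did not. The count was thus 2 of 4, against 35.9% of all coding genes, and the median signal of the 2 was 110.1. SdhD had 106 pooled, 47.6 in replicate 1 and 48.6 in replicate 2, at 37 bp downstream of its start. The peak at SdhC reached 114 in the pooled list with no thresholded summit in either replicate, and it was nearer to the start of Tctp. SdhA and SdhB had summits within 5 kb, with signals of 93.6 near CG11257 and 236 near koi.

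Of the paralogs of complex II, SdhBL alone had a summit within 1 kb and SdhAL and SdhCL had none. SdhBL had the highest value of any L paralog, at 374 pooled, 242 in replicate 1 and 140 in replicate 2. Its summit lay 760 bp upstream, nearest to the start of the neighbouring gene Flacc.

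In complex III, 3 of the 6 genes without the suffix and 0 of the 3 paralogs had a summit within 1 kb. The share was 35.9% in all coding genes, and the median signal of the 3 was 85.4. UQCR-14, which encodes a small subunit of the cytochrome bc1 complex, had the highest signal of all 87 members, with 846 pooled, 597 in replicate 1 and 243 in replicate 2. The summit lay 3 bp upstream of the start and no other coding gene starts within 1 kb. UQCR-C2, a core subunit gene, had 85.4 in the pooled list and 34.9 in replicate 2 with none in replicate 1, and UQCR-Q had 82.2 in the pooled list alone. The other core subunit gene, UQCR-C1, had 40.2 in replicate 2 and nothing in the pooled list or replicate 1. UQCR-6.4 had no summit within 1 kb in any thresholded list, and UQCR-11 lay 584656 bp from the nearest pooled summit, in the same proximal part of 3L. Thus 1 strong promoter stood among weak or empty ones.

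Complex IV was the one complex in which every gene without the suffix had a summit, 8 of 8, with a median signal of 275. Of its 8 paralogs, 2 had one, and of all coding genes 35.9% did. COX7A, for a small structural subunit, had a pooled signal of 606, with 427 in replicate 1 and 186 in replicate 2, and its summit lay 2 bp downstream of the start. COX7B had 573 pooled, 426 in replicate 1 and 148 in replicate 2, at 138 bp upstream and nearest to the start of Sec3. COX6B had a pooled signal of 464, with 318 in replicate 1 and 141 in replicate 2, at 40 bp upstream.

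COX4, for a subunit that spans the membrane, had 276 pooled, 202 in replicate 1 and 67.2 in replicate 2. These 4 and COX7C and COX8 had a summit in both replicates. COX5B, with 103 in the pooled list and 72.0 in replicate 1, and COX5A, with 44.5 and 12.3, had none in replicate 2. COX5A had the lowest pooled signal of all 47 members with a summit, and its summit was nearest to the start of glo.

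In complex V, the ATP synthase, 9 of the 11 genes without the suffix and 0 of the 4 paralogs had a summit. The share was 35.9% in all coding genes, and the median signal of the 9 was 178. ATPsynF, whose product belongs to the membrane sector, had a pooled signal of 747, with 538 in replicate 1 and 203 in replicate 2, at 52 bp upstream of its start. ATPsynCF6, for coupling factor 6 of the peripheral stalk, had 344 pooled, 240.3 in replicate 1 and 119 in replicate 2, at 21 bp upstream. ATPsynD, for another stalk subunit, had a pooled signal of 266, with 193 in replicate 1 and 66.2 in replicate 2, but at 681 bp upstream and nearest to the start of cdi.

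Of the genes of the catalytic head, ATPsyngamma, the rotor subunit, had 259 in the pooled list and 210 in replicate 1 with none in replicate 2. ATPsynbeta, the catalytic subunit, had 178 pooled, 114 in replicate 1 and 66.1 in replicate 2, at 549 bp upstream and nearest to CG11076. ATPsynbeta and ND-49 are the members on chromosome 4, and ND-49 had no summit. The lowest complex V values were 74.4 at ATPsynG and 60.9 at ATPsynO, which encodes the stalk subunit that joins the head. ATPsynB and ATPsynC had no summit within 1 kb.

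**Figure D2:**
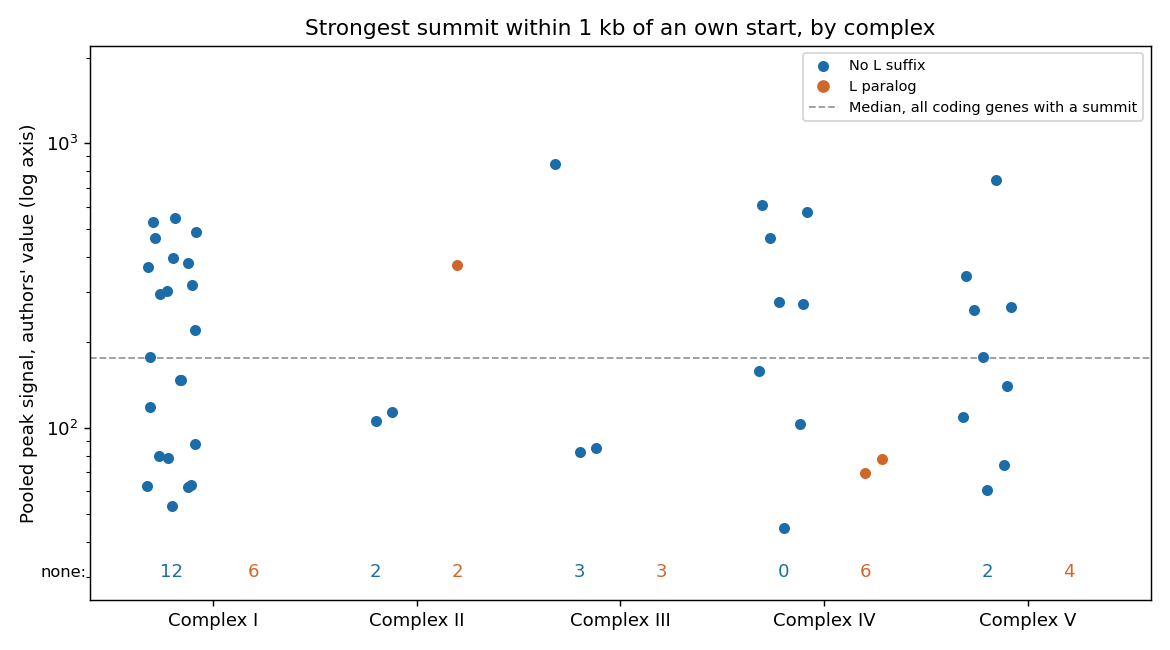
Pooled peak signal (authors' value, log axis) of each member's strongest summit within 1 kb of an own start, by complex, with genes without the suffix left of the L paralogs, and the number without a summit along the bottom. The dashed line is the median of all coding genes with a summit, 177.0. Complex IV has 0 such genes without a summit and complex I has 12, and UQCR-14 at 846 is the highest point.

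The genes below the threshold were not all alike. Of the 40 members without a thresholded summit within 1 kb, 14 genes without the suffix and 9 paralogs had a peak there in the ranked list. Of these 23, all but ATPsynC and COX7AL2 had a -log10 IDR under the threshold of 2. ND-20 came closest at 1.76 with a signal of 56.2, followed by ND-B16.6 at 1.68 and UQCR-C1 at 1.55. Just inside the threshold, ND-MWFE had 2.13 with a signal of 78.3 and ND-B14.7 had 2.22. ND-B17.2, at 0.426 in the ranked list and without a pooled thresholded summit within 1 kb, had one of 56.9 in the conservative list.

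ATPsynC, for the subunit of the membrane ring, had a ranked peak of 95.5 at a -log10 IDR of 2.69, and COX7AL2 one of 283 at 4.03. Both passed an IDR of 0.01 and were absent from the thresholded list, as were 150 of the 5049 nuclear peaks at that IDR. The reason is not given in the sources used here. With all such peaks, 49 members had a summit within 1 kb, 45 without the suffix and 4 paralogs, against 36.6% of all coding genes. The peaks at ATPsynC and COX7AL2 were each nearest to the start of that gene, so COX7AL2 is a paralog that would own one. With these peaks 34 members owned a nearest start, against 27.3% of all coding genes. The strongest ranked peak within 1 kb of COX7AL2 had 158 in replicate 1 and 118 in replicate 2.

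Replicates put the same members high. Of the 47 with a pooled summit, 28 had one in both replicates, 10 in replicate 1 alone, 2 in replicate 2 alone (UQCR-C2 and ATPsynO) and 7 in neither thresholded list. The median pooled signal was 331 in the 28 and 78.3 in the other 19, and the highest value among those 19 was 259, at ATPsyngamma. Across the 28 members, signals in the replicates had a Spearman's rho of 0.94 and a Pearson's r of 0.89 on the log2 scale, against 0.87 and 0.85 across the 3226 coding genes with a summit in both. These are correlations across genes, which are not independent replicates and share 2 libraries. The ratio of replicate 1 to replicate 2 had a median of 2.65 (0.979 to 3.42) in the 28 members. It was 2.39 (0.0821 to 13.3) in the 3226 coding genes, a far larger set. The values of the lists are thus not on a common scale.

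**Figure D3:**
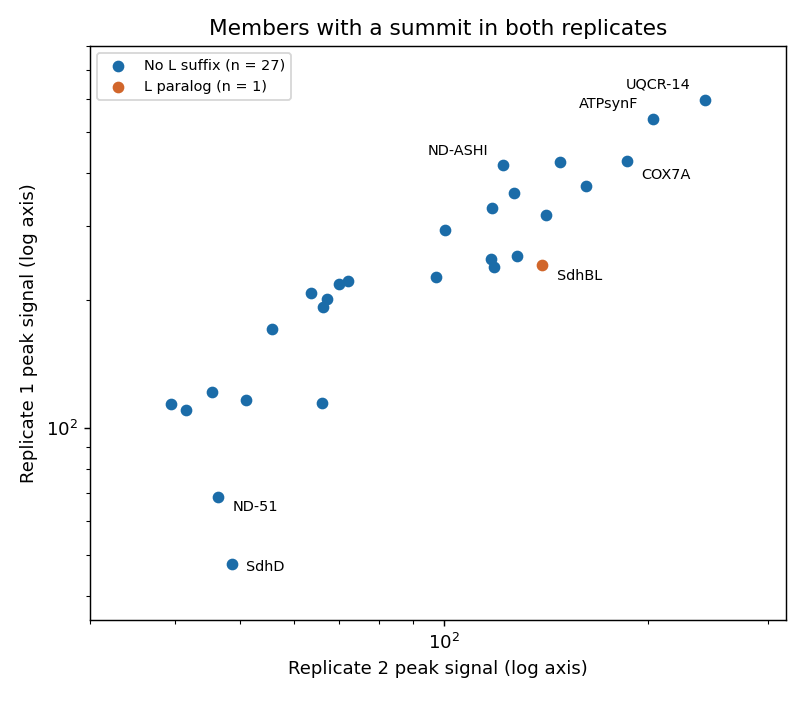
Signal in replicate 1 against replicate 2 (authors' values, log axes) for the 28 members with a thresholded summit within 1 kb in both. The points rise together, with a rho of 0.94 across members, and UQCR-14 is at the top with 597 and 243.

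The median position of the strongest summit was 41 bp upstream of the nearest own start in the 47 members and 69 bp upstream in all coding genes with one. Within 100 bp of the start lay 24 of 47 (51.1%), against 55.7% of all coding genes. Upstream of the start lay 32 (68.1%), against 82.1% of all coding genes. The summit was at least as near to an own start as to that of any other gene in 29 of the 47 (61.7%), against 66.1% of all coding genes, and all 29 were genes without the suffix. Among them ND-MNLL tied with CG45089 and COX6B with CG18809, whose starts lie at the same base. The summits of the 3 paralogs were nearest to other genes, namely Flacc for SdhBL, DppIII for COX7AL at 653 bp downstream, and COX7C for COX7CL at 860 bp upstream.

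**Figure D4:**
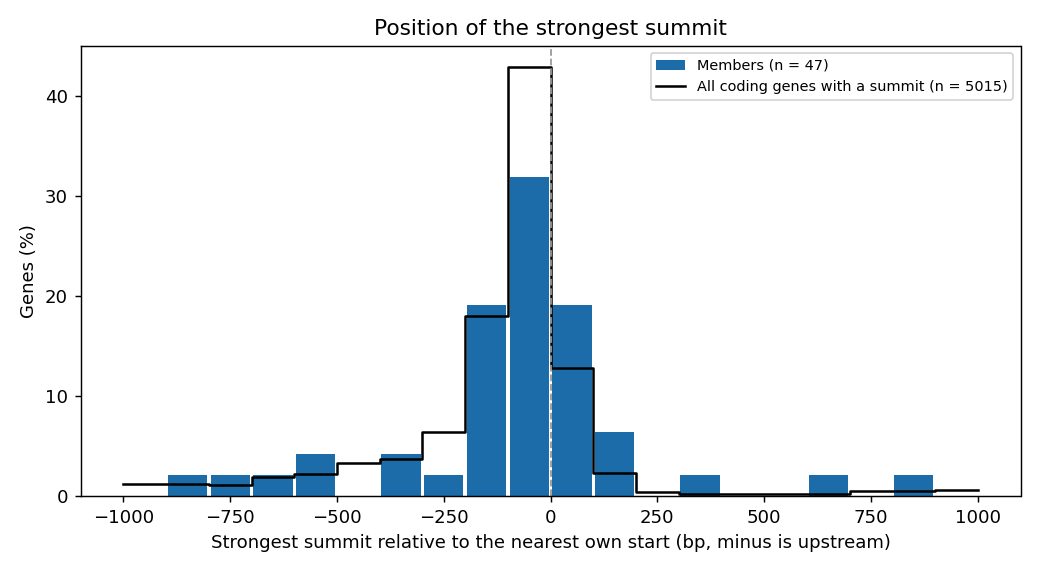
Distance in bp of the strongest summit from the nearest own start, on the gene's strand, as the percent of the 47 members and of the 5015 coding genes with a summit within 1 kb in each bin. Both have their peak just upstream of the start, with medians of -41 and -69 bp.

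The 2 kinds of genes differed in how often another coding gene started nearby. Another coding gene started within 1 kb of 44 of the 63 genes without the suffix (69.8%) and of 7 of the 24 paralogs (29.2%), against 42.8% of all coding genes. Among genes with such a neighbour, 34 of 44 without the suffix and 3 of 7 paralogs had a summit, against 56.4% of all coding genes with one. Among genes with no such neighbour, 10 of 19 without the suffix and 0 of 17 paralogs did, against 20.5% of all coding genes with none. The part of this feature in the difference was not tested beyond this split.

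The paralogs were also shorter and simpler, features that were not split by the presence of a summit. Median gene length was 1178 bp in the genes without the suffix, 744 bp in the paralogs and 2164.5 bp in all coding genes. A single annotated start was found in 49.2% of the genes without the suffix, 87.5% of the paralogs and 73.5% of all coding genes. A single exon was found in 0 genes without the suffix, 6 of the 24 paralogs and 1811 of the 13968 coding genes. The median distance to the nearest summit was 138 bp in the genes without the suffix, 12220.5 bp in the paralogs and 4375 bp in all coding genes.

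Each paralog was set beside the gene it is named after, which made 24 pairs over 21 genes, among them levy, cype and sun, which the symbol rule does not take in. In 16 pairs the gene without the suffix alone had a summit, in 2 both had one (COX7A with COX7AL, COX7C with COX7CL), in 1 the paralog alone had one (SdhB with SdhBL), and in 5 neither did. UQCR-14 with 846 had UQCR-14L without a summit, and ND-B14.5A with 530.3 and ND-24 with 488 likewise had ND-B14.5AL and ND-24L without one. COX7A had 606 and COX7AL 69.9, while COX7C had 273 and COX7CL 78.0.

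Only 3 pairs lie within 5 kb of each other, COX5B and COX5BL 122 bp apart, COX7C and COX7CL 281 bp apart, and COX7A and COX7AL 2625 bp apart. A paralog summit was present in 2 of these 3 and in 1 of the other 21. The paralogs without any were ND-20L, ND-24L, ND-49L, ND-51L1, ND-51L2, ND-B14.5AL, SdhAL, SdhCL, UQCR-11L, UQCR-14L, UQCR-6.4L, COX4L, COX5BL, COX6AL, COX6AL2, COX6CL, COX7AL2, ATPsynCF6L, ATPsynGL, ATPsynbetaL and ATPsynepsilonL. Of these 21, ND-51L1, COX5BL and COX6AL2 had a summit inside the gene or up to 5 kb away, and the distances of the 21 to the nearest summit ran between 1782 and 309921 bp.

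**Figure D5:**
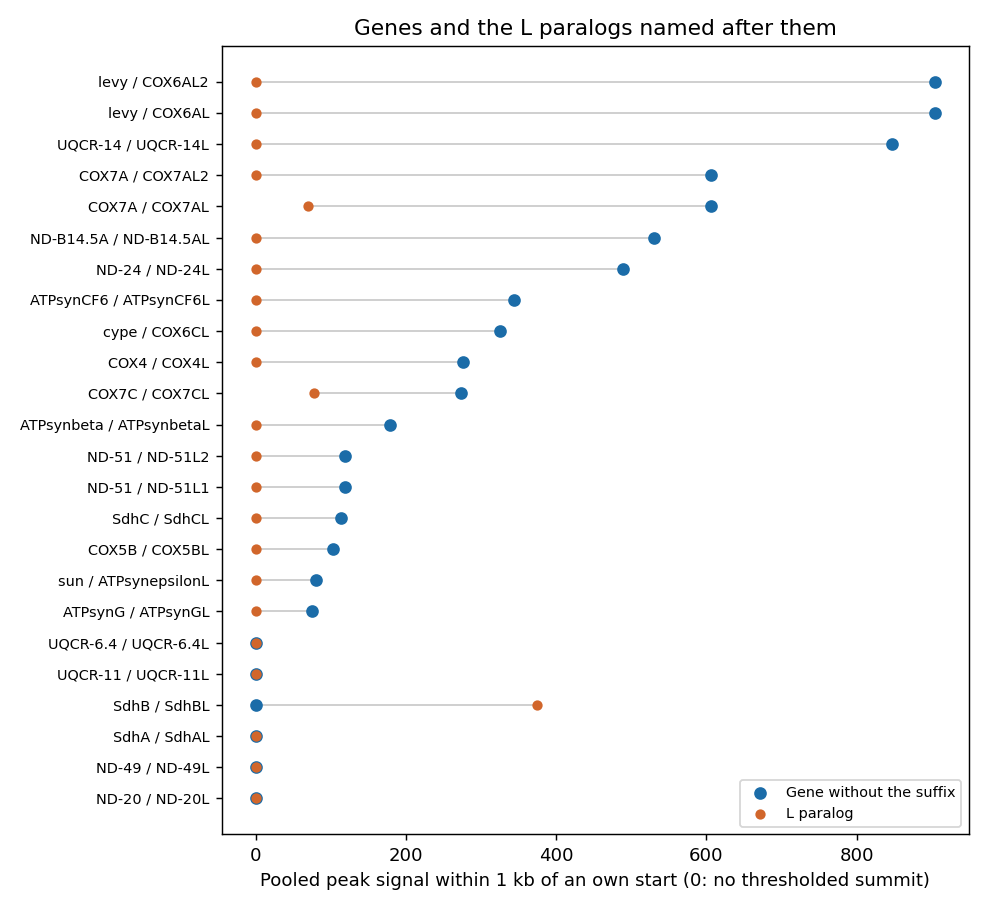
Pooled signal within 1 kb of an own start for each gene and the L paralog named after it, with 0 where no thresholded summit was found. The gene without the suffix stands to the right in 18 of the pairs, SdhBL at 374 is the reverse case, and 5 pairs have neither.

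The words searched in the sequences were TATCGATA, the DNA replication-related element bound by Dref, and TATCGA, its first part, whose reverse complement contains the core bound by BEAF-32. Both strands were read, and a match to the longer word also counts for the shorter. Within 50 bp on either side of the strongest summit, 8 of 47 members (17.0%) held TATCGATA and 17 (36.2%) held TATCGA, against 14.3% and 33.9% of all 4526 pooled promoter summits. The members with TATCGA at the summit had a median signal of 319, against 114 in the 30 without it. Over all promoter summits the medians with and without it were 254 and 85.4. The units differ here and in the shares at summits. Each member gives its strongest summit alone, whereas all promoter summits include weaker ones, with values down to 2.11. COX7B, ND-ASHI and ND-24 were among the strong summits without it. The TATCGA printed upstream of ND-24 lay outside the window at its summit.

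In the promoter, from 250 bp upstream of the gene start to 50 bp downstream, TATCGATA was present in 9 of 44 genes without the suffix that had a summit (20.5%), in 0 of the 19 that had none and in 0 of 24 paralogs. It was present in 9.36% of all coding promoters, in 22.6% of those with a summit and in 1.94% of those without. TATCGA was present in 18 of 44 (40.9%), 3 of 19 (15.8%) and 6 of 24 (25%) of the same sets. Of all coding promoters 27.7% held it, as did 52.3% of those with a summit and 14% of those without. ND-24L held it in the stretch printed above, with no summit.

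The word GGTCACAC, part of the core promoter element known as motif 1, was present in 15 of 63 promoters without the suffix (23.8%) and in 1 of 24 paralog promoters (4.17%), against 7.70% of all coding promoters. Of the genes without the suffix, it was present in 10 of the 44 with a summit (22.7%) and 5 of the 19 with none (26.3%), whereas over all coding genes it was present in 13.3% of those with a summit and 4.57% of those with none. The homeodomain core TAATTA was present at 3 of 47 summits (6.38%), against 5.81% of all, and in 16 of 63 promoters without the suffix (25.4%) and 5 of 24 paralog promoters (20.8%), against 20.5% of all.

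GAGAGA was found at 1 of the 47 summits (2.13%), against 5.81% of all, and the E-box CACGTG at 0, against 1.63% of all. The NRG element, known from Drosophila promoters of nuclear genes for mitochondrial proteins, was found at 1 member summit, that of ATPsynO, against 0.0884% of all promoter summits. It was in 0 of the 63 promoters without the suffix and 0 of the 24 of paralogs, against 0.387% of all coding promoters.

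Genes of the same pathway outside the symbol rule were read in 5 lists. Of 10 further subunits and carriers, 7 had a summit within 1 kb, against 35.9% of all coding genes, and 5 of them in both replicates, against 23.1%. Their median was 186, against 177.0 in all coding genes with a summit. The gene levy, for a subunit of complex IV, had a pooled signal of 904, with 680 in replicate 1 and 230 in replicate 2, nearest to the start of wmd. The pooled signal was 326 at cype, also of complex IV, 307 at blw, the alpha subunit of the ATP synthase, and 186 at Cyt-c-p, a cytochrome c. Cyt-c-d, the other cytochrome c gene, had none, and neither did RFeSP, the iron-sulphur subunit of complex III, or Etf-QO.

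Of 22 genes of pyruvate oxidation and the citric acid cycle, 14 had a summit within 1 kb, against 35.9% of all coding genes, and 11 of them in both replicates, against 23.1%. Their median was 316, against 177.0. Scsalpha1, a subunit of succinyl-CoA synthetase, had 901 pooled, 612 in replicate 1 and 302 in replicate 2. Idh3b, of isocitrate dehydrogenase, had a pooled signal of 673, with 467 in replicate 1 and 201 in replicate 2, and Ogdh, of the oxoglutarate dehydrogenase complex, had 488. Fum1 shared the peak of ND-ASHI. The 8 without one were mAcon1, mAcon2, Scsalpha2, Fum2, Fum3, Fum4, Pdk and Pdha, of which Scsalpha2 and the 3 fumarase genes belong to families with another member that had a summit.

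Of 5 assembly genes found, 1 had a summit within 1 kb, against 35.9% of all coding genes. This was CIA30, for complex I assembly, with 80.1 in the pooled list and none in replicate 2. Scox, Surf1, Bcs1 and Sdhaf3 had no summit within 1 kb. The adjacent genes of the ADP/ATP carriers, sesB and Ant2, shared 1 peak of 263, and porin, of the outer membrane, had none. Of these 3 genes, 2 thus had a summit, as did 3 of 6 regulators, against the same 35.9%. Among the regulators, ewg, the fly relative of nuclear respiratory factor 1, had 483, BEAF-32 340.2 and Dref 242. Meanwhile srl, Ets97D and M1BP had no pooled summit within 1 kb, though srl had one of 18.9 in replicate 1.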

How the data were processed

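Chromatin of both replicates was immunoprecipitated with anti-GFP, per the labels, and the files are peak lists on dm6, filtered or ordered by IDR. The deposited lists give the authors' signal per peak, a score up to 1000, the summit offset in bp from the peak start (another quantity, in whole bases) and, in the ranked lists, the -log10 of the global IDR. Per the deposited text descriptions they were made from replicate alignments together with 1 further file of unstated role. Caller and aligner: not given in the sources used here. Signal is comparable only within a list, and read depth is unknown.

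Python 3.11.15, numpy 2.4.6, pandas 2.3.3, scipy 1.17.1 and matplotlib 3.10.9 were used with Ensembl release 115 (BDGP6.54). A summit was given to a gene when within 1 kb of any annotated transcript start, inside the gene or up to 5 kb away, or when that gene had the nearest start among annotated genes other than transposable elements. Placement of summits was tested on simulated data. With 1 group no test was made, and counts and medians stand beside those of all nuclear coding genes. Named genes were, per complex, the 4 members of highest and the 2 of lowest signal, every member without a summit and every L paralog, and, per list, up to 4 genes by signal and those without a summit. Others named were chosen after their values were seen. In the lists of other genes, 3 names had no match in the annotation. The sequence of 1 promoter is not reported here. The members and lists were chosen with earlier results of these data known. Alternatives covered the peak list, the replicates, a stricter IDR score, the strongest 500 peaks, the start, the window, the overlap and the removal of assembly factors.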

Additional observations from a re-analysis of the deposited data

How the results depend on the processing

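Of 56 alternatives to the counts and medians, 43 stayed within 1.5 times the count, or within 1 SD of the median, and 13 did not. Those that stayed include the runs without assembly factors, which could change nothing because the rule took in none. They also include the run on the 5′ end of the gene for the 5 kb window, which is not drawn from starts. With the 500 nuclear peaks of highest signal, 9 members had a summit within 1 kb (5.71% of all coding genes), all 9 without the suffix and 0 L paralogs, 21 had one inside the gene or up to 5 kb away (13.1%), 8 owned the nearest start (3.62%), and the median signal was 547, against 572 in all coding genes. Fewer peaks enter there by construction. A 100 bp window left 27 members (22.4% of all coding genes), all 27 without the suffix and 0 paralogs. In the thresholded list of a single replicate, 31 to 38 members, of which 1 to 2 were paralogs, had a summit, and the median signal was 72.0 to 205, against 76.9 to 163 in all coding genes, on scales that differ between lists. In the ranked lists, 63 members had a summit in both replicates, against 56.0% of all coding genes. The ranked list at a global IDR of 0.01 or less was added after seeing the data and moved no count past that limit. No paired analysis was possible because there was 1 group. A missing summit can be a peak below the threshold, and without read counts no floor can be given for it. The L paralogs with a summit number 3, so each weighs heavily in their share.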
